A study of Mus musculus with 2 samples.

Results

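The Ms4a gene cluster was examined as 6 neighbouring genes of mouse chromosome 19, namely Ms4a7, Ms4a4a, Ms4a4c, Ms4a6c, Ms4a6b and Ms4a6d, out of 21883 protein-coding genes measured. The members were given by symbol, chosen by earlier values of these same fragments in cell classes and libraries, so their levels and ratios are descriptions with no test. Open chromatin was read in single liver nuclei with droplet-based ATAC-seq. A transposase cuts and tags accessible DNA, and each sequenced fragment marks an open stretch in 1 nucleus. One group was Spta sph/sph and the other its Spta wt/wt littermate control, with 1 mouse and 1 library in each group, and the sph allele of the spectrin gene Spta causes fragile, spherical red cells and anaemia in mice. Both were untreated males of 8 to 10 weeks, and in both, non-parenchymal liver cells were passed over beads that bind F4/80, a surface protein of macrophages. The labels name no strain. Barcodes carry the suffix 1 or 2, and nothing in the labels or files says which mouse either suffix came from. The libraries are called library 2 and library 1 after the suffixes, and no difference between them can be assigned to the mutation. With 1 library a group, genotype, mouse and library preparation cannot be told apart, and all intervals cover counting error alone.

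MS4A proteins span the cell membrane 4 times. Ms4a1, known as CD20, marks B cells, Ms4a2 is the beta chain of the high-affinity IgE receptor, and Ms4a3 marks progenitors of granulocytes and monocytes. The members are known from myeloid and lymphoid cells: Ms4a7 and Ms4a4a from macrophages, Ms4a6d from macrophages where it pairs with the Kupffer cell receptor VSIG4, Ms4a6c from monocytes, Ms4a4c from monocytes and interferon-stimulated cells, and Ms4a6b from T cells and macrophages. In human, variants near MS4A4A and MS4A6A are associated with the risk of Alzheimer disease.

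The members occupied 284 kb of GRCm38. Ms4a7 lay at chr19:11321039-11336146 on the minus strand, and Ms4a4a at chr19:11375488-11392915, Ms4a4c at chr19:11404717-11427246, Ms4a6c at chr19:11469353-11487182 and Ms4a6b at chr19:11518559-11530403 on the plus strand. Ms4a6d lay at chr19:11586606-11604804, and no strand was at hand for it. The same stretch also held Ms4a4b, Ms4a4d and Gm8369, and a further 13 MS4A genes lay outside it.

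Promoters are shown where open chromatin reached a gene start. That of Ms4a4a was chosen because its start lay in or beside a 1 kb tile with at least 20 Kupffer-like fragments in both libraries, and those of Ms4a7, Ms4a6c and Ms4a6b were chosen after their values were seen. Each is the RefSeq window of 300 bases (250 before and 50 from the gene start) in build GRCm38.p6, written 5′ to 3′ on the gene's own strand. Capitals in the Ms4a7 window mark a GAGGAA match, a core of the binding motif of the myeloid factor PU.1. Capitals in the Ms4a6c and Ms4a6b windows mark the longest run of bases that the 2 windows share.
Ms4a4a, chr19:11375238-11375537, plus strand: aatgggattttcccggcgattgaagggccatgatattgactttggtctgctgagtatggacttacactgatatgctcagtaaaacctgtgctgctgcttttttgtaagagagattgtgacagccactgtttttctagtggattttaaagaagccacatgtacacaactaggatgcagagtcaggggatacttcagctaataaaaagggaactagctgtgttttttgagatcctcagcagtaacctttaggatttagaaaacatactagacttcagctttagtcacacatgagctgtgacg
Ms4a7, chr19:11336097-11336396, minus strand: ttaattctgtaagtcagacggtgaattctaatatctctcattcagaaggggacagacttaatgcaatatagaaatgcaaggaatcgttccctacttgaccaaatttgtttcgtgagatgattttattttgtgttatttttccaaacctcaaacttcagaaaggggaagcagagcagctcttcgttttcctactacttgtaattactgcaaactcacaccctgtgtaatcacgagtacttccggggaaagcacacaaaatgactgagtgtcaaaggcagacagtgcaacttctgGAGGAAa
Ms4a6c, chr19:11469118-11469417, plus strand: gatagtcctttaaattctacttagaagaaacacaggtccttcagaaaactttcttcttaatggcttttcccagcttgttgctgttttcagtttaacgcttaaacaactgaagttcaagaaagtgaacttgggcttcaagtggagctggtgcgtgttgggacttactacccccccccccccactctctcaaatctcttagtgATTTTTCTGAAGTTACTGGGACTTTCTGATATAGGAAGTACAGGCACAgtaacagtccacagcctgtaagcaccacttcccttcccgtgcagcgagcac
Ms4a6b, chr19:11518309-11518608, plus strand: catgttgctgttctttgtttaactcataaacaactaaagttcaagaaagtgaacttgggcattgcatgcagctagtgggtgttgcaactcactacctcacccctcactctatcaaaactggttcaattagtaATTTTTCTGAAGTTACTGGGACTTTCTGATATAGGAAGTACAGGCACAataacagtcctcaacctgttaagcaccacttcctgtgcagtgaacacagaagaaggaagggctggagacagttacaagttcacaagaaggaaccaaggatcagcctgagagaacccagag

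The promoters of Ms4a6c and Ms4a6b shared an exact run of 48 bases, which ended 2 bases before the promoter table's start of Ms4a6c and 71 bases before that of Ms4a6b. That start of Ms4a6c lies 15 bases inside the gene as placed by the gene table, and that of Ms4a4c 2.94 kb inside. No other pair among the 6 member windows shared a run longer than 9 bases. The RefSeq table held windows for 5 of the 6 members. Searched on both strands, GAGGAA occurred once in the Ms4a7 window shown and once in that of Ms4a4c, and in 28.3% of all 32851 promoter windows. The AP-1 motif TGANTCA was found once, at a second Ms4a7 start, against 7.81% of all windows, and the C/EBP motif TTGCNNAA was found in no member window, against 10.8% of all. The E-box CANNTG occurred in 72.3% of all windows and its form CACGTG, which is one of the CANNTG words, in 7.15%. CANNTG was found in the windows of Ms4a4a, Ms4a4c, Ms4a6c and the second Ms4a7 start, and CACGTG in no member window. A match or its absence describes these letters and not the binding of a factor.

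Library 2 held 21656110 unique fragments and library 1 held 11401694. The authors had called 575 barcodes of library 2 cells, with 56.2% of its fragments, and 637 barcodes of library 1, with 83.2%. The median cell held 13186 fragments in library 2, against 13220 in library 1, but 53.7% of a median cell's fragments lay in peaks in library 2, against 72.1% in library 1. No cell barcode sequence occurred in both libraries. After filtering, 562 cells of library 2 and 609 cells of library 1 were clustered without chromosome 19 and named within each library from marker genes. Kupffer-like cells, the resident macrophages that the bead step enriches, made up 297 cells or 52.8% in library 2, against 313 cells or 51.4% in library 1. They formed 1 cluster in library 2. In library 1 they formed 2 other clusters, of 212 and 101 cells, the second of which had no Kupffer marker among its 10 leading genes. The cluster of library 2 also held 28 cells of library 1, which reached no marker list's threshold and stayed unnamed. Endothelial-like cells numbered 149 in library 2, against 118 in library 1. Stellate-like cells numbered 26 in library 2, against 66 in library 1, and hepatocyte-like cells 0 in library 2, against 28 in library 1. Cluster 4, which held 88 cells of library 2 and 51 cells of library 1, was left unnamed, because it scored highest for conventional dendritic markers in library 2 and for monocyte markers in library 1. Its leading genes in both libraries included Flt3, a receptor of dendritic cell precursors, and Gpr141.

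Each member's level is the number of fragments touching its gene body or the 2 kb on either side, per 1000000 fragments of the cell class (CPM), with an exact 95% Poisson interval. Summed, the members' windows had higher levels in Kupffer-like than in endothelial-like cells in both libraries, and they were lower in Kupffer-like cells of library 2 than of library 1. Summed over the members, Kupffer-like cells held 313 fragments or 42.9 CPM (38.2 to 47.9) in library 2, against 767 fragments or 139 CPM (129 to 149) in library 1. Endothelial-like cells held 22 fragments or 10.1 CPM (6.33 to 15.3) in library 2, against 18 fragments or 11.8 CPM (7.01 to 18.7) in library 1, so that the endothelial levels of the libraries overlapped while the Kupffer levels did not. In bulk sums of this kind, fewer cells open at a gene and fewer fragments per open cell give the same value.

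Ms4a7, a macrophage member read at the left end of the cluster, had 76 fragments or 10.4 CPM (8.2 to 13) in Kupffer-like cells of library 2, against 138 fragments or 24.9 CPM (21.0 to 29.5) in those of library 1. In cluster 4 it had 11.4 CPM (7.22 to 17.1) in library 2, against 30.3 CPM (19.2 to 45.5) in library 1. Endothelial-like cells held 1 fragment in library 2, against 4 in library 1. In each library the Kupffer-like and cluster 4 levels overlapped, and both stood above the endothelial level.

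Ms4a4a, which encodes a macrophage surface protein, had 63 fragments or 8.63 CPM (6.63 to 11) in Kupffer-like cells of library 2, against 80 fragments or 14.5 CPM (11.5 to 18) in those of library 1. Cluster 4 stood above the Kupffer-like cells in library 2, at 19.3 CPM (13.7 to 26.4), and reached 27.7 CPM (17.1 to 42.4) in library 1, where the intervals overlapped. Endothelial-like cells held 4 fragments in library 2, against 1 in library 1. A single Kupffer-like cell of library 2 held 14 of the 63 fragments, and a single cell held 12 of the 76 of Ms4a7. No Kupffer-like cell of library 1 held more than 4 fragments of a member.

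Ms4a4c, known from monocytes and as an interferon-induced gene, had the fewest fragments per kb of all members in Kupffer-like cells of both libraries. Its level was 4.66 CPM (3.22 to 6.51) from 34 fragments in library 2, against 15.2 CPM (12.1 to 18.8) from 84 fragments in library 1. In cluster 4 it was 12.4 CPM (8.01 to 18.3) in library 2, above the Kupffer-like level of that library, and 21.1 CPM (12.1 to 34.3) in library 1, where the intervals overlapped. Endothelial-like cells held 2 fragments in library 2, against 6 in library 1.

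Ms4a6c, a monocyte gene, had 41 fragments or 5.61 CPM (4.03 to 7.62) in Kupffer-like cells of library 2, against 134 fragments or 24.2 CPM (20.3 to 28.7) in those of library 1. Cluster 4 was above the Kupffer-like cells in both libraries, at 18.3 CPM (12.9 to 25.3) in library 2, against 43.5 CPM (29.97 to 61.1) in library 1. Endothelial-like cells held 1 fragment of Ms4a6c in each library.

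Ms4a6b, known from T cells and macrophages, had 31 fragments or 4.25 CPM (2.88 to 6.03) in Kupffer-like cells of library 2, against 123 fragments or 22.2 CPM (18.5 to 26.5) in those of library 1. In library 2 this did not stand apart from the endothelial-like level of 3.68 CPM (1.59 to 7.24), from 8 fragments. In library 1 endothelial-like cells held 2 fragments, and the level of stellate-like cells, 20.5 CPM (11.7 to 33.3) from 16 fragments, overlapped that of Kupffer-like cells. The Kupffer markers summed to 272 CPM in those stellate-like cells and to 1564 CPM in Kupffer-like cells of library 1, and 2 of the 16 were at 0 in the stellate-like cells. Cluster 4 had 9.90 CPM (6.05 to 15.3) of Ms4a6b in library 2, just above the Kupffer-like level, and 13.2 CPM (6.33 to 24.3) in library 1, where the intervals overlapped.

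Ms4a6d, the partner of VSIG4, had 68 fragments or 9.31 CPM (7.23 to 11.8) in Kupffer-like cells of library 2, against 208 fragments or 37.6 CPM (32.7 to 43.1) in those of library 1. Per kb of window, it was the most open member in Kupffer-like cells of library 1, at 1.69 CPM per kb, whereas Ms4a7 was the most open in library 2, at 0.545 CPM per kb. Cluster 4 had 16.3 CPM (11.3 to 23.0) of Ms4a6d in library 2, against 31.7 CPM (20.3 to 47.1) in library 1, and overlapped the Kupffer-like level in both. Endothelial-like cells held 6 fragments in library 2, against 4 in library 1.

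**Figure D1:**
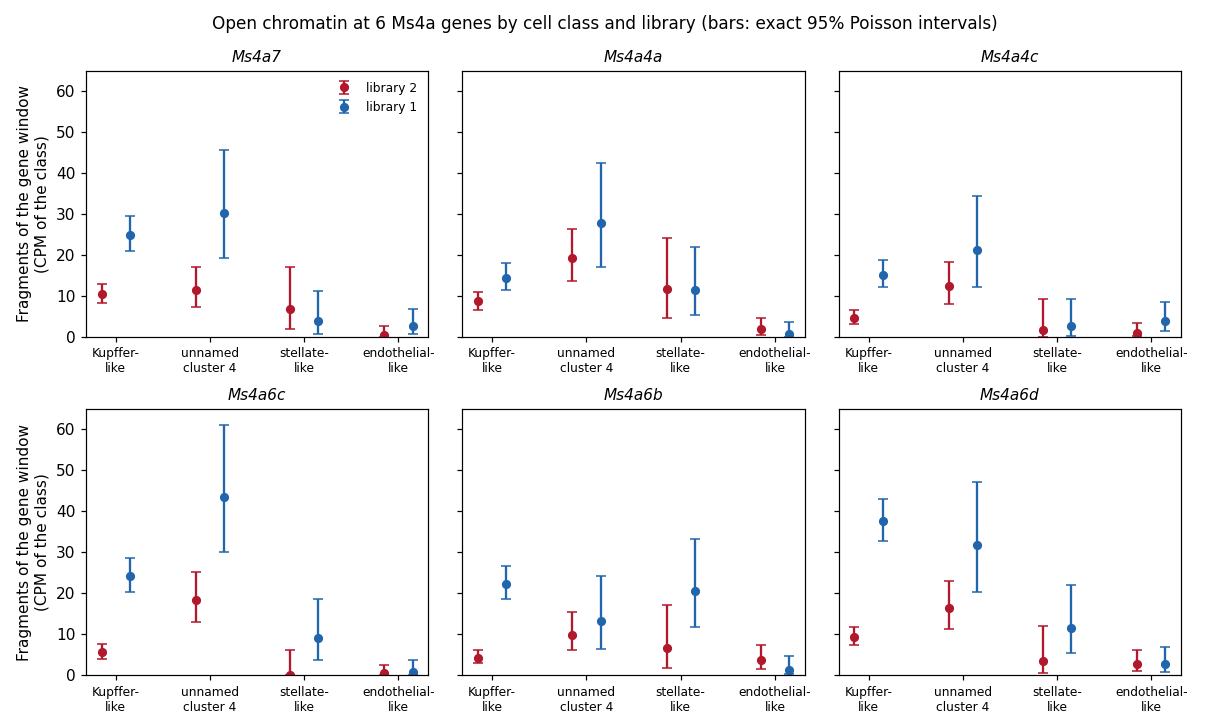
Fragments in the window of each member, in CPM of the class (vertical axis), in 4 cell classes of library 2 (red, left of each pair) and library 1 (blue, right). Points are levels and bars exact 95% Poisson intervals; Kupffer-like levels of library 2 lie below those of library 1 for each of the 6 members, and endothelial-like levels stay at 3.95 CPM or less.

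Stellate-like cells, the pericytes of the liver sinusoid, held 18 member fragments in library 2, against 46 in library 1, and hepatocyte-like cells of library 1 held 10. In stellate-like cells these were 30.15 CPM (17.87 to 47.65) in library 2, against 58.96 CPM (43.16 to 78.64) in library 1. The library 2 level overlapped that of Kupffer-like cells of that library, and the library 1 level was below theirs. The hepatocyte-like level was 22.1 CPM (10.6 to 40.64). Among these classes Ms4a4a had 7 fragments or 11.7 CPM (4.71 to 24.2) in stellate-like cells of library 2, against 9 fragments or 11.5 CPM (5.28 to 21.9) in those of library 1, which overlapped the Kupffer-like levels of the same libraries. Ms4a6c had no fragment in stellate-like cells of library 2 and Ms4a4c none in hepatocyte-like cells, with upper interval bounds of 6.18 CPM for Ms4a6c and 8.15 CPM for Ms4a4c.

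Kupffer-like cells were set against endothelial-like cells of the same library, which shared its handling. Ratios are given on the log2 scale relative to the median gene, and a gene with at least 50 fragments in the 2 classes together was called where it passed a 2-fold difference. Kupffer-like cells were formed by clustering these cells and named by genes other than the members, so this comparison describes the classes and tests nothing. In library 2, 3 members reached 50 fragments and all 3 were more than 2-fold higher, against 14% of all genes, while in library 1 all 6 were, against 12.4%. The members passed this minimum through their Kupffer-like fragments, a choice that favours high ratios. The counts of members therefore cannot be weighed against the shares of all genes. The log2 ratios in library 2 were 4.06 (95% interval 2.11 to 9.96) for Ms4a7, 2.21 (0.94 to 4.29) for Ms4a4a and 1.79 (0.69 to 3.39) for Ms4a6d. The 3 under that minimum in library 2 were Ms4a4c, with 34 Kupffer-like and 2 endothelial-like fragments, Ms4a6c, with 41 and 1, and Ms4a6b, with 31 and 8. Their log2 ratios were 2.18 (0.51 to 5.58) for Ms4a4c, 3.18 (1.19 to 9.08) for Ms4a6c and 0.28 (-0.81 to 1.67) for Ms4a6b. In library 1 the ratios ran from 1.84 (0.77 to 3.44) for Ms4a4c to 4.63 (2.71 to 10.5) for Ms4a6c. The members' median was 2.21 over the 3 in library 2, against 3.72 over the 6 in library 1. The summed members were higher by 2.19 (1.59 to 2.91) in library 2 and by 3.52 (2.89 to 4.32) in library 1. Clec4f, a lectin of Kupffer cells, was at 3.11 (2.28 to 4.26) in library 2, against 3.36 (2.63 to 4.33) in library 1, and the intervals of the summed members overlapped its intervals in both libraries.

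Not all MS4A genes had this pattern. Of the 15 others, 8 reached the minimum in library 2, against 9 in library 1. In Kupffer-like cells 4 were more than 2-fold higher in library 2, against 7 in library 1. In each library 1 gene, Ms4a10, was more than 2-fold lower, as were 7.76% of all genes in library 2 and 9.77% in library 1. Ms4a10 had a log2 ratio of -1.61 (-2.10 to -1.13) in library 2, against -2.83 (-3.42 to -2.27) in library 1. Ms4a8a, Ms4a20, Ms4a1 and Ms4a4d were higher in both libraries, and Ms4a18, Ms4a19 and Ms4a4b in library 1. Ms4a20 had the most fragments of any MS4A gene in Kupffer-like cells, with 181 in library 2, against 336 in library 1. Ms4a1 had a log2 ratio of 1.40 (0.36 to 2.86) in library 2, against 3.0 (1.41 to 6.39) in library 1, from 60 Kupffer-like fragments in library 2, against 72 in library 1. Ms4a2 had 21 there in library 2, against 6 in library 1, and Ms4a3 had 17 in library 2, against 15 in library 1. The 9 B-cell markers, which did not include Ms4a1, summed to 337 CPM in Kupffer-like cells of library 2, against 336 CPM in those of library 1.

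Per kb of window, the members held 0.338 CPM (0.301 to 0.377) in Kupffer-like cells of library 2, against 1.09 CPM (1.02 to 1.17) in those of library 1, and the other MS4A genes 0.339 CPM (0.316 to 0.363) in library 2, against 0.635 CPM (0.599 to 0.673) in library 1. In library 2 the summed levels overlapped, near the genome mean of 0.367 CPM per kb, while the median gene stood at 0.335 among the members and 0.234 among the others. In library 1 the summed level of the members was 1.72-fold that of the other MS4A genes, with gene medians of 1.21 among the members and 0.368 among the others. The sums of the other genes lean on a few of them, such as Ms4a20 at 1.60 CPM per kb and Ms4a15 at 1.38 in library 1. In endothelial-like cells the members stood at 0.0796 CPM per kb in library 2, against 0.0932 in library 1, and the other MS4A genes at 0.278 in library 2, against 0.305 in library 1. Of the fragments of the other genes there, Ms4a10 held 74 of 200 in library 2, against 79 of 153 in library 1. The gene medians were 0.0602 for members and 0.104 for the others in library 2, and 0.101 for members and 0.0789 for the others in library 1, so that their order differed between the libraries. In cluster 4 the summed level of the members was 1.40-fold that of the others in library 2, against 1.97-fold in library 1. In stellate-like cells it was 0.504-fold in library 2, against 1.76-fold in library 1, so that the excess was not particular to Kupffer-like cells.

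**Figure D2:**
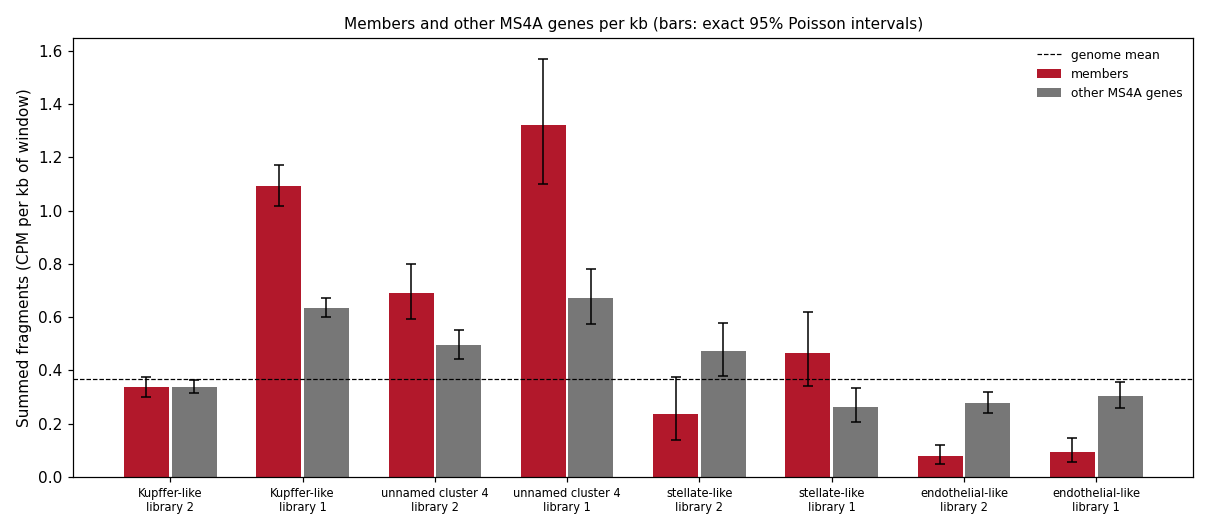
Summed fragments per kb of gene window, in CPM per kb (vertical axis), for the members (red) and the 15 other MS4A genes (grey) in 4 cell classes of each library, with exact 95% Poisson intervals. The dashed line is the genome mean of 0.367 CPM per kb; members stand above the other MS4A genes in Kupffer-like cells of library 1, at 1.09 against 0.635, but not of library 2. They also stand above them in cluster 4 of both libraries and in stellate-like cells of library 1.

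Between the libraries, each of the 6 members was lower in Kupffer-like cells of library 2 than of library 1 relative to the median gene, and 4 were more than 2-fold lower. Over all 16802 genes with enough fragments, 2.18% were more than 2-fold lower and 16.6% more than 2-fold higher. The largest differences were at Ms4a6b, with a log2 ratio of -1.97 (-2.61 to -1.41), Ms4a6c with -1.70 (-2.25 to -1.20) and Ms4a6d with -1.61 (-2.03 to -1.22), and the genes with lower ratios numbered 2 for Ms4a6b, 14 for Ms4a6c and 21 for Ms4a6d. Ms4a4c followed with -1.30 (-1.93 to -0.72), where 101 genes were lower. The macrophage members Ms4a7, at -0.86 (-1.29 to -0.45), and Ms4a4a, at -0.35 (-0.85 to 0.15), did not reach 2-fold, and the interval of Ms4a4a included 0. By whole windows, the 3 Ms4a6 genes therefore had the lowest ratios and the left end of the cluster the highest, but the intervals did not set these groups apart. The interval of Ms4a4c overlapped that of every other member. That of Ms4a7 overlapped those of Ms4a6c and Ms4a6d, but not that of Ms4a6b. Single cells of library 2 held 14 of the 63 fragments of Ms4a4a and 12 of the 76 of Ms4a7. Their part in this order was not tested. Within 500 bases of the starts shown, the ratios were -0.80 for Ms4a4a, -2.05 for Ms4a7, -2.23 for Ms4a6c and -3.30 for Ms4a6b.

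The size of these ratios moved with the cells and the scaling used. Ms4a7 was at -0.30 at a finer clustering, which left 258 Kupffer-like cells in library 2, and at -0.39 among cells that had 50% or more of their fragments in peaks. Ms4a4a was at -1.23 among the same cells, and it turned to 0.11 when scaled by fragments in peaks without reference to the median gene. On that scale the summed members had a ratio of -0.84 (-1.04 to -0.65), against -1.30 (-1.49 to -1.11) relative to the median gene and -1.69 by all fragments. The median gene itself stood at a log2 ratio of -0.397 by all fragments, 0.145 by fragments near transcription start sites and 0.453 by fragments in peaks.

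The difference was shared in part by genes around the members and by Kupffer cell genes. Of the 15 other MS4A genes, 11 had enough fragments, with a median log2 ratio of -0.475, against -1.45 for the members, and 2 were more than 2-fold lower. These were Ms4a4b at -1.47 (-2.05 to -0.95) and Ms4a4d at -1.21 (-1.71 to -0.74), both of which lie between members. Of 26 other protein-coding genes within 500 kb, 15 had enough fragments, with a median of -0.375, and 1 was more than 2-fold lower. This was Gm8369 at -1.74 (-2.19 to -1.33), which lies between Ms4a6c and Ms4a6b and whose window overlaps that of Ms4a6c. The nearest such genes outside the cluster were Ccdc86, at -0.17 (-0.42 to 0.08), and Oosp2, at -0.85 (-1.60 to -0.16). Each protein-coding gene from Ms4a4c to Ms4a6d, those between members included, was thus more than 2-fold lower, a stretch that was noticed after the values were seen.

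The 16 Kupffer markers had a median log2 ratio of -0.80, with 5 more than 2-fold lower and Marco, a scavenger receptor, higher at 1.65 (1.41 to 1.90). Summed, they stood at 745 CPM in Kupffer-like cells of library 2, against 1564 CPM in those of library 1, and none was at 0. The complement genes C1qa, C1qb and C1qc had ratios of -1.15 (-1.39 to -0.91), -0.81 (-1.02 to -0.61) and -0.79 (-1.02 to -0.57). Vsig4, the partner of Ms4a6d, was at -1.28 (-1.54 to -1.03), Timd4 at -1.09 (-1.30 to -0.89) and Clec4f at -0.86 (-1.08 to -0.65). The intervals of Ms4a6c, Ms4a6b and Ms4a6d each overlapped that of Vsig4. The 9 monocyte markers, none at 0, summed to 275 CPM in Kupffer-like cells of library 2, against 387 CPM in those of library 1. Lower marker sums in library 2 were not particular to Kupffer-like cells. Endothelial markers summed to 1641 CPM in endothelial-like cells of library 2, against 3032 CPM in library 1. Stellate markers summed to 1219 CPM in stellate-like cells of library 2, against 1712 CPM in library 1. In cluster 4 the conventional dendritic markers were at 476 CPM in library 2, against 474 CPM in library 1. Other values moved with the library too: the median share of fragments in peaks was 50.7% in Kupffer-like cells of library 2, against 74.2% in those of library 1, and local pile-ups in single cells took 14.4% of Kupffer-like fragments in library 2, against 0.424% in library 1. The summed members had a log2 ratio of -1.20 (-1.48 to -0.93) among cells with 50% or more of their fragments in peaks and -1.23 (-1.43 to -1.04) with pile-ups masked. The part of the marker levels in the result was not tested.

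**Figure D3:**
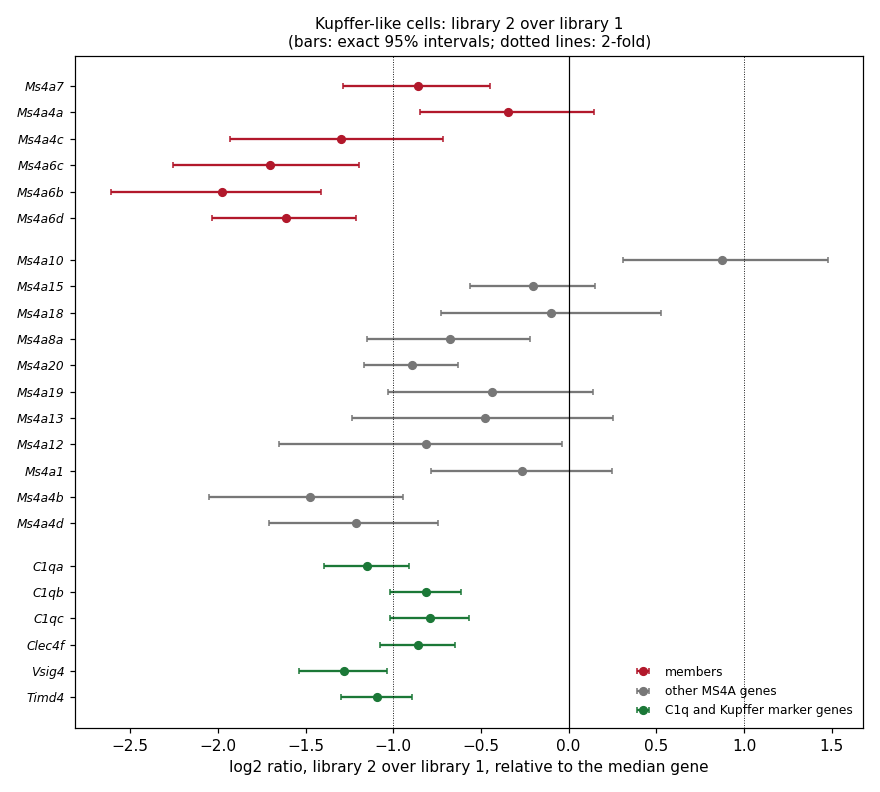
Log2 ratio of library 2 over library 1 in Kupffer-like cells, relative to the median gene (horizontal axis), for the members (red), the 11 other MS4A genes with enough fragments (grey) and the C1q genes with 3 Kupffer markers (green). Bars are exact 95% intervals and dotted lines mark 2-fold; the 3 Ms4a6 genes lie furthest to the left, from -1.97 to -1.61.

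Cluster 4 had a higher summed member level than Kupffer-like cells in library 2. Its summed level was 87.7 CPM (75.2 to 102) there, against 42.9 CPM (38.2 to 47.9) in Kupffer-like cells, and it was 168 CPM (140 to 199) in library 1, against 139 CPM (129 to 149), where the intervals overlapped. The Kupffer markers summed to 407 CPM in cluster 4 of library 2, against 745 CPM in Kupffer-like cells of that library, and to 553 CPM in cluster 4 of library 1, against 1564 CPM in Kupffer-like cells. The members of cluster 4 were also lower in library 2 than in library 1, with a summed log2 ratio of -0.85 (-1.19 to -0.51) relative to the median gene. Of the 3 members with enough fragments, Ms4a6c was more than 2-fold lower at -1.17 (-1.88 to -0.44), against 0.571% of 12268 genes, and Ms4a4a at -0.45 (-1.24 to 0.40) and Ms4a6d at -0.88 (-1.67 to -0.05) were not.

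In 1 kb tiles, few places in the cluster held many fragments. Of 324 tiles over the cluster with 20 kb on each side, 8 held at least 20 Kupffer-like fragments in library 2, against 27 in library 1, and 8 did so in both. These 8 tiles held 28.1% of the 751 Kupffer-like fragments of the region in library 2, against 26.8% of the 1687 in library 1. Of the 8 tiles open in both libraries, 4 lay inside a member and 4 between genes. The 8 ranged from -1.79 to -0.0037 in log2 ratio of library 2 over library 1 relative to the median gene, and for 5 the interval lay below 0. These 8 were all the tiles that passed the minimum in library 2, a choice that favours high ratios. The other 19 tiles passed the minimum in library 1 alone, a choice that favours low ratios, so their ratios are not listed here. Tiles at gene starts are among them, and the ratio of chr19:11404001-11405000 is given below with that limit.

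The fullest tiles lay between genes. The tile chr19:11431001-11432000, 3.75 kb beyond the end of Ms4a4c, held 37 Kupffer-like fragments in library 2, against 104 in library 1, with a log2 ratio of library 2 over library 1 of -1.48 (-2.08 to -0.94). Endothelial-like cells held 3 fragments there in library 2, against 1 in library 1. The tile chr19:11513001-11514000, 4.56 kb before Ms4a6b, held 30 in library 2, against 105 in library 1, with a ratio of -1.79 (-2.45 to -1.21). Both tiles were also open in cluster 4, with 16 and 11 fragments in library 2, against 8 and 11 in library 1. The tile chr19:11602001-11603000 inside Ms4a6d held 22 in library 2, against 57 in library 1, at -1.36 (-2.16 to -0.64). The tile chr19:11559001-11560000, 26.6 kb left of Ms4a6d, held 24 in library 2, against 41 in library 1, at -0.76 (-1.57 to -0.02). The 8 tiles open in both libraries leave out those under the minimum in library 2, a choice that favours high ratios. The tiles holding the starts of Ms4a7 and Ms4a4a shown above were left out in this way. They held 7 and 19 Kupffer-like fragments in library 2, against 44 and 34 in library 1. The 8 tiles therefore cannot set this side apart from the rest of the cluster. Among the 8, the ratios closest to 0 belonged to 3 of the Ms4a7 and Ms4a4a side. Another tile of that side, chr19:11329001-11330000 inside Ms4a7, was not among these 3 and was lower than the tile left of Ms4a6d. It held 21 fragments in library 2, against 41 in library 1, at -0.95 (-1.80 to -0.18). The tile chr19:11376001-11377000 inside Ms4a4a held 22 fragments in library 2, against 22 in library 1, with a ratio of -0.0037 (-0.92 to 0.92). The tile chr19:11321001-11322000 at the downstream end of Ms4a7 held 22 in library 2, against 31 in library 1, at -0.49 (-1.36 to 0.34). The tile chr19:11350001-11351000, 13.9 kb before Ms4a7, held 33 in library 2, against 51 in library 1, at -0.62 (-1.31 to 0.03), and was nearly empty in cluster 4, with 3 fragments in library 2, against 1 in library 1.

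**Figure D4:**
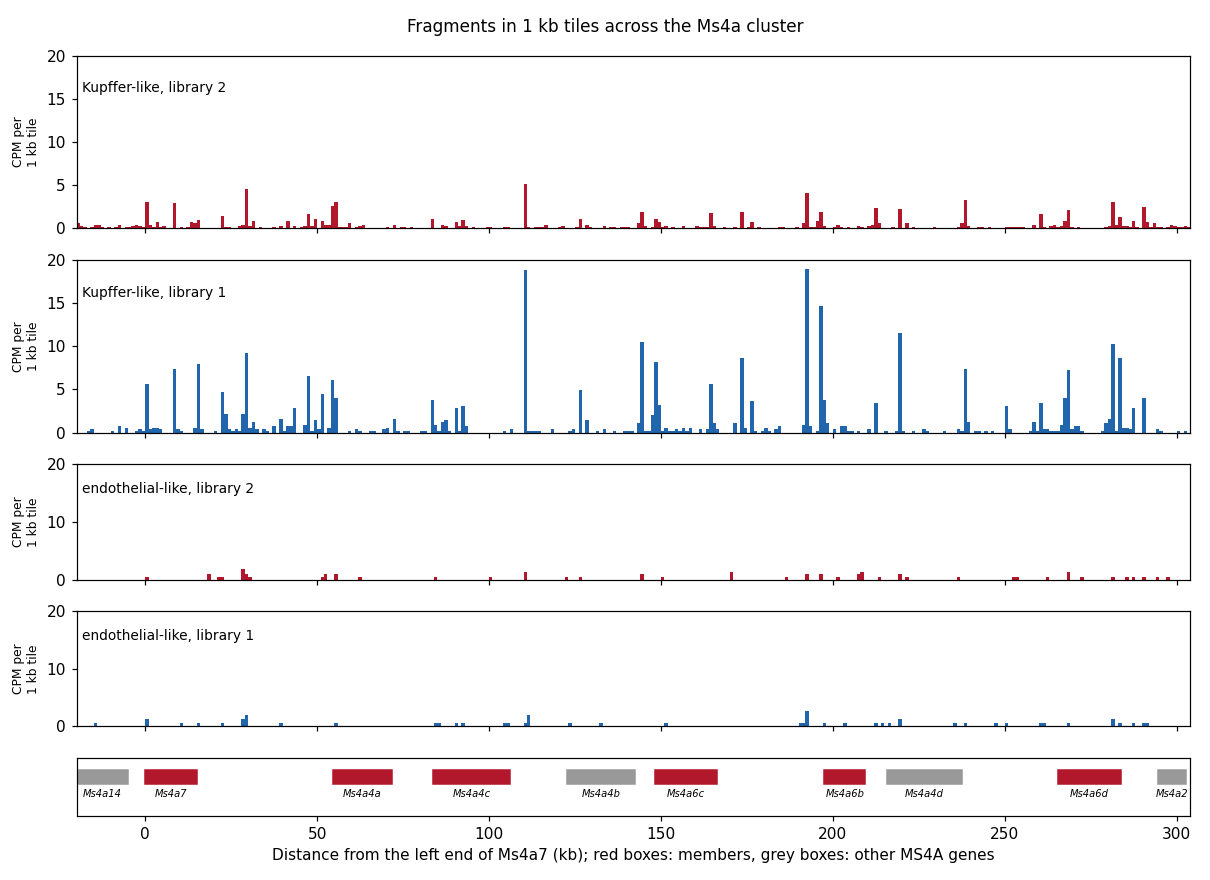
Fragments in 1 kb tiles, in CPM of the class (vertical axes, all from 0 to 20), along the cluster by distance from the left end of Ms4a7 (horizontal axis, kb), for Kupffer-like cells of library 2 and library 1 and endothelial-like cells of library 2 and library 1, from top to bottom. Boxes are gene bodies; the highest bar of library 1 is 19 CPM and the highest of library 2 is 5.07 CPM.

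At the gene starts of the promoter table the difference between libraries was uneven. The ratios there are relative to the median gene of whole windows, at -0.397. In windows of 1 kb on each side of the gene start the median gene stood lower, at -0.799. Within 500 bases on either side of the start, Ms4a6b had 2 Kupffer-like fragments in library 2, against 24 in library 1, with a log2 ratio of -3.30 (-6.71 to -1.58). Ms4a6c, which shares the 48-base promoter run with Ms4a6b, had 9 in library 2, against 44 in library 1, with a ratio of -2.23 (-3.51 to -1.24). Both starts were open in library 1 and sparsely read in library 2. Ms4a7 had 11 in library 2, against 47 in library 1, at -2.05 (-3.19 to -1.13). Ms4a4a had 20 in library 2, against 35 in library 1, at -0.80 (-1.68 to 0.02). Ms4a4c had 3 in library 2, against 7 in library 1, too few to rank it. The tile chr19:11404001-11405000, which holds its start in the gene table, had 8 in library 2, against 21 in library 1, at -1.34 (-2.78 to -0.16). That tile passed the minimum of 20 fragments in library 1 alone, a choice that favours low ratios. So did the tiles that hold the starts of Ms4a7, Ms4a4a, Ms4a6c and Ms4a6b shown above. The second Ms4a7 start had 5 in library 2 and none in library 1. In endothelial-like cells each of these starts held 0 or 1 fragment.

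Fragments shorter than 150 bases, about the length of DNA on 1 nucleosome, made up 67.4% (61.9 to 72.6) of those in member windows of Kupffer-like cells in library 2, against 66.8% (63.3 to 70.1) in library 1. Over all fragments of these cells the share was 65.1% in library 2, against 59.9% in library 1. The other MS4A windows had 67.2% (63.8 to 70.4) in library 2, against 60.0% (57.2 to 62.9) in library 1. The shares of members and other MS4A genes overlapped in library 2, and in library 1 that of the members was higher, with intervals that did not overlap.

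Cell by cell, after each cell was thinned to 5000 fragments, 17.2% (12.9 to 22.2) of 274 Kupffer-like cells of library 2 held a fragment in any member, against 45.7% (39.9 to 51.6) of 291 in library 1, with exact binomial intervals. The thinning left out 23 shallower Kupffer-like cells in library 2, against 22 in library 1. Endothelial-like cells, which give the background, stood at 3.79% (1.24 to 8.62) in library 2, against 2.08% (0.253 to 7.32) in library 1, and the median depths before thinning were 13342 and 10720 fragments for Kupffer-like and endothelial-like cells of library 2, against 16505 and 10972 for those of library 1. Without thinning, the Kupffer-like shares were 44.1% in library 2, against 80.5% in library 1, and the stellate-like shares 46.2% in library 2, against 43.9% in library 1. In cluster 4 the thinned shares were 35.9% (25.3 to 47.6) in library 2, against 47.8% (32.9 to 63.0) in library 1, which overlapped. Without the cell with most member fragments in each library, which held 29 of 313 in library 2, against 11 of 767 in library 1, the summed log2 ratio of library 2 over library 1 was -1.34 (-1.54 to -1.14). Within library 1, both Kupffer-like clusters held the members, with Ms4a6d at 38.2 CPM in the larger and 37.0 CPM in the deeper one, and Ms4a7 at 21.2 CPM in the larger and 28.5 CPM in the deeper one. Within the cluster of the library 2 Kupffer-like cells, a comparison made after the values were seen, the summed members stood at 42.9 CPM (38.2 to 47.9) in library 2, against 75.8 CPM (50.4 to 110) from 28 fragments in its 28 unnamed cells of library 1, at a log2 ratio of -1.03 (-1.57 to -0.40) relative to the median gene. Ms4a6c had 41 fragments or 5.61 CPM (4.03 to 7.62) there in library 2, against 2 fragments or 5.42 CPM (0.656 to 19.6) in library 1, and the intervals of every member but Ms4a7 included a ratio of 0. The Kupffer markers summed to 745 CPM in library 2, against 604 CPM in library 1. The 28 cells are not matched to the Kupffer-like cells. Over the other cells of its library, the mean log2 enrichment of Kupffer markers was 1.13 in the library 2 cells, against -0.81 in the 28. The median share of fragments in peaks was 50.7% in the library 2 cells, against 38.8% in the 28.

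**Figure D5:**
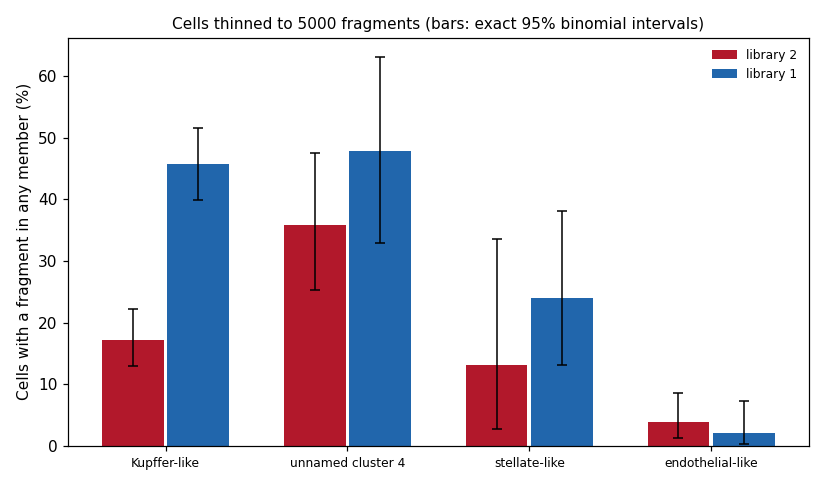
Share of cells, in percent (vertical axis), with at least 1 fragment in any member after thinning to 5000 fragments a cell, in 4 cell classes of library 2 (red, left) and library 1 (blue, right), with exact 95% binomial intervals. The Kupffer-like shares are 17.2% in library 2, against 45.7% in library 1, and the endothelial-like shares 3.79% and 2.08%.

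Across 11 combinations of cluster and library with at least 20 cells, the log2 levels of the members correlated with each other at r between 0.579 and 0.933 over the 15 pairs, lowest for Ms4a4c with Ms4a6b and highest for Ms4a6c with Ms4a6d. Among 15926 genes off chromosome 19, those closest to the summed members were Dthd1 (r = 0.97), Otulinl (r = 0.97), Dgkg (r = 0.96), Csk (r = 0.96) and Gm5544 (r = 0.96). Of the Kupffer cell genes set beside them, C1qc had an r of 0.65, Vsig4 of 0.63, C1qb of 0.59, Timd4 of 0.55, Clec4f of 0.44 and C1qa of 0.40. The points share 2 libraries and differ in depth, and the correlations are given as descriptions.

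MS4A genes arose by duplication, and reads from stretches that 2 copies share can be assigned to either or dropped, so the values of Ms4a4c, Ms4a6b, Ms4a6c and Ms4a6d are uncertain where copies are alike. The sources used here do not state whether such reads were kept. Of the 324 tiles, 35 held no fragment in any cell. These included 5 of the 24 tiles of Ms4a4c, 5 of the 19 of Ms4a6d, 2 of the 16 of Ms4a7, 1 of the 18 of Ms4a4a, 1 of the 13 of Ms4a6b and none of the 19 of Ms4a6c.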

How the data were processed

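Single-nucleus ATAC-seq of 2 mouse liver libraries was analysed. The submitters' processing notes name, with no role or order, build GRCm38.p5, Signac 0.2.4, Seurat, R 3.6.1, Cell Ranger and Cell Ranger ATAC 1.2.0. The deposited fragment table gives counts of read pairs per unique fragment, not normalized, and a second deposited table gives fragment counts per barcode and the authors' cell calls. Their threshold is not stated in the sources used here. Each unique fragment was counted once. Gene positions came from a RefSeq table of GRCm38.p6, a patch release with the same primary coordinates.

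Cells had at least 1000 fragments in peaks, at least 15% in peaks and at most 5% blacklisted. Fragments in 5 kb bins seen in at least 10 cells (335567 bins, chromosome 19 left out) underwent TF-IDF weighting and truncated SVD to 30 components (scikit-learn 1.9.0). The first was left out, and Leiden clustering (leidenalg 0.10.2, igraph 0.11.9) at resolution 0.5 on 20 neighbours gave 8 clusters. In each library, a cluster was named where its mean log2 enrichment over the other cells reached 0.25 for a marker list, was 0.2 above any other list, and had 3 markers in at least 10% of its cells. It also needed as many of its own as of other markers among its 10 leading genes, and stayed unnamed where its cells of both libraries reached 0.25 for different lists. Thresholds for naming were set with the clusters in view. The 14 lists held 139 markers, all matched. Doublets were kept, and an overlap rule marked 89 cells of library 2 and 74 of library 1.

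Levels are CPM with exact Poisson intervals, and 3 fragments is the count that a 0 allows. Log2 ratios have exact conditional binomial intervals at 95% and 0.5 added to counts. The method was checked on simulated data. With 1 library per group no test was possible. Pile-ups were 20 kb bins where 1 cell had 10 or more fragments and 10 times the number expected. The named genes were all members, other MS4A genes past 2-fold or marking other cells, the nearest neighbours, and the 5 genes most like the members. Members and lists were chosen with earlier results of these data known. Alternatives were other cell filters, bins, resolutions, windows, counting units and scalings. Ms4a6d could not be counted at its start, having no strand at hand.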

Additional observations from a re-analysis of the deposited data

Results flagged for a closer look

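Member windows also held fragments in barcodes that the authors had not called cells, which enter none of the comparisons. There were 412 such fragments in library 2, or 43.46 CPM (39.4 to 47.9) of its 9480832 fragments outside cells, and 126 in library 1, or 65.81 CPM (54.8 to 78.4) of 1914615. Both lie above the limit of 3 fragments that a count of 0 allows. In library 2 the level outside cells overlapped that of Kupffer-like cells, 42.9 CPM (38.2 to 47.9), and in library 1 it was below their 139 CPM (129 to 149). These barcodes carry no cell class, and the source of their fragments was not tested.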

How the results depend on the processing

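Of 357 member ratios under the alternatives, 344 moved by less than their counting interval, 13 moved by more, and 0 called values changed sign. Changes of sign were not counted for values that were not called. Among these, the Kupffer-like over endothelial-like ratio of Ms4a6b in library 2 was 0.28. It ran from -1.49 with thinned cells to 2.09 within 1 kb of the gene start. The count of members more than 2-fold higher in Kupffer-like over endothelial-like cells of library 2, 3 as reported, was 1 without cells marked by the overlap rule, 0 within 1 kb of the gene start, 5 with insertions counted or with no minimum of fragments, 0 with thinned cells and 0 among cells with 50% or more in peaks, where fewer fragments left fewer members over the minimum. In library 1 the count of 6 was 2 at gene starts and 1 with thinned cells. The count of 4 members more than 2-fold lower in library 2 than in library 1 was 1 with thinned cells, where 2 members kept enough fragments. The share of all genes past 2-fold was not computed under the alternatives. These counts therefore cannot set the members apart from other genes. The summed Kupffer-like over endothelial-like ratio was 3.69 at gene starts in library 2, from 73 and 2 fragments, and 4.43 at gene starts and 4.65 with thinned cells in library 1; the cause was not tested. The summed library 2 over library 1 ratio was -1.69 without reference to the median gene and -0.84 by fragments in peaks, a shift made by the scaling itself. With insertions counted, 20 tiles instead of 8 passed the minimum in both libraries, since each fragment has 2 ends. Over these alternatives the library ratio ran from -1.26 to -0.30 for Ms4a7, -1.23 to 0.11 for Ms4a4a, -1.69 to -0.80 for Ms4a4c, -2.13 to -1.25 for Ms4a6c, -3.10 to -1.52 for Ms4a6b and -2.01 to -1.16 for Ms4a6d. The limits on peak share, on cells of more than 50000 fragments, on the cell with most member fragments, on cluster 6 and on scaling were chosen after seeing the data. No paired analysis was possible because each group has 1 library, and for the same reason no replicate could be left out. Depth limits the small classes most: a member rests on 0 to 3 fragments in hepatocyte-like cells of library 1, on 0 to 7 in stellate-like cells of library 2 and on 1 to 8 in endothelial-like cells.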
